A study of Homo sapiens with 18 samples.

Results

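The distal sites reached by glucocorticoid receptor (GR) with budesonide alone and by RELA with IL-1β alone numbered 1771 of the 11571 sites mapped by ChIP-seq in A549 cells. They were chosen by their measured binding intensity, which had to be 4 or more for GR with budesonide and also 4 or more for RELA with IL-1β, and by lying more than 1.0 kb and up to 200 kb from the nearest gene start. They made up 1771 of the 8832 sites at this distance. Of the rest, 3656 reached 4 for GR alone and 2996 for RELA alone, and these served for comparison. A further 97 sites within 1.0 kb of a start and 505 sites beyond 200 kb also had both intensities at 4 or more and were not included. A site that met the limit is called bound below in this sense only. No intensity of untreated cells was used, so the rule does not say whether a site was already occupied before stimulation.

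A549 is a human lung adenocarcinoma cell line used as a model of type II pulmonary epithelium. Serum-starved A549 cells were treated for 1 h with IL-1β at 1 ng/mL (labelled IL1B) plus budesonide at 300 nM, with budesonide alone, with IL-1β alone, or with neither, and 2 libraries were made for each antibody and treatment and 2 for input DNA, 18 in all. The values used were 4 per site: GR with IL-1β-plus-budesonide, GR with budesonide, RELA with IL-1β-plus-budesonide and RELA with IL-1β. Untreated cells, GR with IL-1β, RELA with budesonide and input were not analysed here. Each intensity is a single value over both libraries on the authors' scale, whose unit and log base are not given, and it ran between 0 and 11.0. Differences are therefore subtractions on that scale and not folds. Because no value per library was at hand, depth and the spread between the independent experiments are unknown, no error stands beside an intensity, and differences between treatments or groups of sites were not tested. Sites are not replicates of a treatment.

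GR is a hormone receptor that enters the nucleus once a glucocorticoid such as budesonide binds it, and it binds DNA at paired inverted hexamers known as the glucocorticoid response element (GRE) or through other proteins already on chromatin. RELA is the transactivating subunit of NF-κB, which the cytokine IL-1β releases from its inhibitors to bind κB elements near inflammatory genes. In airway epithelium, glucocorticoids are used to restrain inflammatory genes, and GR and NF-κB can occupy common enhancers, with AP-1 and FOXA factors as frequent neighbours.

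A GRE was counted where at least 10 of the 12 positions of AGAACA and TGTTCT, with 3 bases between them, matched on either strand within 100 bp of the site centre. The κB element, a consensus of 9 defined positions, had to match in full. A match describes letters and is not a shown binding site. Only 7 of the 1771 sites held both, and they are printed here because they are the members whose sequence offers an element for each factor. All are from the plus strand of GRCh38, with the GRE and the κB element in capitals.
SRGAP2: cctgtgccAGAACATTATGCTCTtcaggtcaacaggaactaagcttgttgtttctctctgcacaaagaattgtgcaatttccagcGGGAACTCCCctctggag
SRGAP2C: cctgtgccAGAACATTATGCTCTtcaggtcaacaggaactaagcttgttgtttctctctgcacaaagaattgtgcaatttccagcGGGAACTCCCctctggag
SRGAP2B: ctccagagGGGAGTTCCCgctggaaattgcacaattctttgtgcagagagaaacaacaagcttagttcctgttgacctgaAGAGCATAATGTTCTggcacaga
KLF4: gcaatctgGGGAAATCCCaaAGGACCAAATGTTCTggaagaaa
EDN1: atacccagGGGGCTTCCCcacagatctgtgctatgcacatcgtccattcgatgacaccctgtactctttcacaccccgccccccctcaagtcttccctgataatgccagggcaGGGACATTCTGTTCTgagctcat
JAK1: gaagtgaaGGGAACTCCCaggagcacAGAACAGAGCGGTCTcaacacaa
SLC35B4: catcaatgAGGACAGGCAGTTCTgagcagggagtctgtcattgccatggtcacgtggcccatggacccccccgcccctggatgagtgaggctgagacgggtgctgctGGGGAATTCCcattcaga

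Names are those of the nearest gene. The first 3 stretches lie at chr1:206280768-206280870, chr1:121262293-121262395 and chr1:145017908-145018010, in introns of SRGAP2 and its copies SRGAP2C and SRGAP2B. They are near-identical copies: the SRGAP2 and SRGAP2C sites differed at 2 of 396 aligned bases, and SRGAP2 and SRGAP2B at 3 of 396 in reverse orientation, so reads could not be assigned among them with certainty. The other 4 stretches lie at chr9:107539569-107539611 between genes near KLF4, chr6:12370060-12370195 between genes near EDN1, chr1:64917428-64917476 in an intron of JAK1, and chr7:134351556-134351680 between genes near SLC35B4. At KLF4 only 2 bp separated the elements, and at JAK1 8 bp. At EDN1 and SLC35B4 the gaps were 95 bp and 84 bp.

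Sites with a single element were far more common, and the following were chosen after their values were seen, to show a κB element where GR was much higher with both treatments or that lies by an inflammatory gene, and then a GRE where RELA was higher with both treatments. The strand and capitals are as before.
KLHL25: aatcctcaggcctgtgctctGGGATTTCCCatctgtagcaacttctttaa
PLLP: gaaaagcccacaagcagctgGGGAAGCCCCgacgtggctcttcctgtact
CCL2: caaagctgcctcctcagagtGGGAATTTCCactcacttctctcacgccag
CFLAR: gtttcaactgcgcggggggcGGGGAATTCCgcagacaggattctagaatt
BAAT: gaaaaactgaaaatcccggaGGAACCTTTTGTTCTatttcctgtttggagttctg
PER1: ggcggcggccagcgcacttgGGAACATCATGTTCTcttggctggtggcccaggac
SCNN1A: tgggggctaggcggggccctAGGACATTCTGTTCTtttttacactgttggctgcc
KLF9: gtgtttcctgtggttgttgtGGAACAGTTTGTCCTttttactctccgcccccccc

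The κB stretches lie at chr15:85762788-85762837, chr16:57304283-57304332, chr17:34252655-34252704 and chr2:201118599-201118648, in the order KLHL25, PLLP, CCL2 and CFLAR. The GRE stretches lie at chr9:101353859-101353913 for BAAT, chr17:8154440-8154494 for PER1, chr12:6376298-6376352 for SCNN1A and chr9:70420105-70420159 for KLF9. The PER1 element sat 2 bp from the centre of its site and the SCNN1A element 4 bp, each with 11 of the 12 positions. The PLLP κB element sat 90 bp from the centre.

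With both treatments together, the median intensities at the 1771 sites lay close to those of each treatment alone, and the limit was still met at nearly all sites. Single sites moved in both directions, and at only 527 of them (29.8%) did both factors stay within 0.5. GR had a median intensity of 5.63 with IL-1β-plus-budesonide, against 5.36 with budesonide alone, and met the limit with both treatments at 1697 sites (95.8%). RELA had a median of 5.18 with IL-1β-plus-budesonide, against 5.07 with IL-1β alone, and met it at 1632 sites (92.2%). With both treatments, GR met the limit at 79.8% of GR-alone sites and 68.2% of all sites. RELA met it at 83.3% of RELA-alone sites and 61.8% of all sites. The rule held the single-treatment values of the members at 4 or more, so these shares are a description only. The per-site difference had a median of 0.13 for GR, with 10% of sites below -0.69 and 10% above 1.23, and of -0.05 for RELA, with 10% below -0.79 and 10% above 0.94. Over all sites with both intensities above 0, the median difference was 0.10 for GR and 0.06 for RELA, so neither median of the members stood far from that of the table.

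Sites that moved by 0.5 or more were a minority in each direction. GR was higher with both treatments by at least 0.5 at 31.0% of the sites, against 37.4% of all sites with both intensities above 0. It was lower at 293 sites (16.5%), against 27.4%. RELA was higher at 395 (22.3%), against 34.0%, and lower at 375 (21.2%), against 23.6%. Wherever these 4 shares of all sites are given, they cover the sites with both intensities of that factor above 0. Shares for the 2 factors jointly cover all 11571 sites. The rule held the single-treatment values of the members at 4 or more, and these values enter the differences, so the shares are set beside those of the table as a description only. Both factors were higher at 160 sites (9.0%), against 9.7% of all sites, and both were lower at 73 (4.1%), against 4.4%. GR was higher while RELA was lower at 105 (5.9%), against 11.6%. At 527 sites (29.8%) neither moved by 0.5, against 13.8% of all sites.

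Sites of a single factor had other values, and the limits that chose them enter their differences too. At the GR-alone sites, GR had a median difference of -0.56 and was lower by 0.5 at 53.3%, while RELA had a median difference of 0.78 and reached 4 with both treatments at 30.1%. At the RELA-alone sites, RELA had a median difference of -0.43 and was lower at 45.1%, while GR had a median difference of 1.18 and reached 4 at 38.6%. The single-treatment value that placed a site below 4 is the one subtracted in its difference, and the part this plays was not tested.

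The limits passed through a continuum of values. Just inside the GR limit were sites near SUCNR1, with 4.002, and ITGB8, with 4.005, and just outside were DHRS3, with 3.9996, and DUSP6, with 3.998. For RELA, SRGAP2B and CFTR lay just inside, with 4.0002 and 4.0004, and ATXN10 and EFR3A just outside, with 3.9994 and 3.9990. These sites differed in what followed: GR at the ITGB8 site measured 6.70 with IL-1β-plus-budesonide, and at the SUCNR1 site 3.22.

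The intensities of GR and RELA were hardly related across the sites when each came from its own treatment, and closely related when both treatments were given. With IL-1β-plus-budesonide, Pearson's r between GR and RELA was 0.71 and Spearman's rho 0.71 over the 1771 sites. Between GR with budesonide and RELA with IL-1β, r was 0.09 and rho 0.01. Each point is a site, all points share the same pooled libraries, and the limit of 4 was set on the single treatments and not on the combination. The single-treatment values are therefore cut off at 4, and the part this plays in their lower r was not tested. The sites of a single factor showed a like pattern: r was 0.64 with both treatments and 0.08 with the single ones over the GR-alone sites, and 0.56 and 0.09 over the RELA-alone sites. Over all 11571 sites the same pair of values was 0.37 with both treatments and -0.34 with the single ones.

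**Figure D1:**
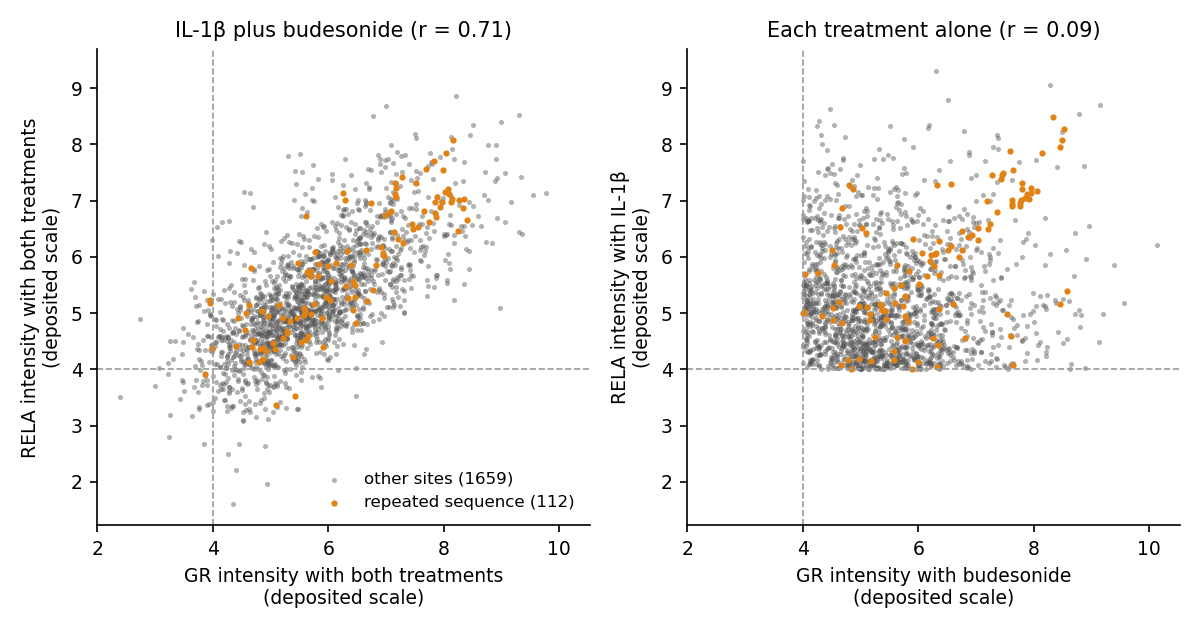
GR intensity (x axis) against RELA intensity (y axis) at the 1771 sites on the deposited scale, with IL-1β-plus-budesonide on the left and each factor with its own single treatment on the right. Dashed lines mark the limit of 4, and orange points are the 112 sites of repeated sequence. The cloud follows a rising line with both treatments (r = 0.71) and fills the corner above the limits with single ones (r = 0.09).

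GR was more often higher with both treatments the stronger RELA had been with IL-1β. It was higher by 0.5 at 170 of the 835 sites with RELA of 4 to 5 (20.4%), at 171 of the 542 with 5 to 6 (31.5%) and at 208 of the 394 with 6 or more (52.8%). The share was 31.0% over the members and 37.4% over all sites with both GR intensities above 0. Among the sites with GR between 4 and 5 with budesonide, the median GR difference was 0.24 where RELA with IL-1β was 4 to 5 (276 sites), 0.45 where it was 5 to 6 (218 sites) and 1.14 where it was 6 or more (147 sites). In that last group, GR was higher by 0.5 at 114 sites and lower at 2. Among sites with GR between 5 and 6, the medians were -0.23, 0.13 and 0.78 over the same RELA ranges, and between 6 and 7 they were -0.26, -0.01 and 0.23. Where GR was already 7 or more, the medians lay between -0.13 and 0.10. The order over RELA was seen within these ranges of starting GR intensity, with a smaller span of medians at 6 or more than below 6. The rule cut both single-treatment values at 4, and GR with budesonide is also the value subtracted. The part this plays was not tested, and the order is a description only.

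RELA showed the same order over the GR intensity with budesonide at its lower starting intensities. Among sites with RELA between 4 and 5 with IL-1β, the median RELA difference was 0.01 where GR was 4 to 5, 0.06 where it was 5 to 6 and 0.75 where it was 6 or more (224 sites, 147 higher and 9 lower). Between 5 and 6 the medians were -0.32, -0.18 and 0.26, and between 6 and 7 they were -0.45, -0.29 and -0.19. At a RELA intensity of 7 or more, the medians were -0.29, -0.37 and -0.31 and followed no order. The same cut at 4 applies here, and RELA with IL-1β is also the value subtracted, so this too is a description only. Across all members, r was 0.42 between RELA with IL-1β and the GR difference, and 0.40 between GR with budesonide and the RELA difference. Over all 11571 sites these were 0.50 and 0.44, so the relation was not particular to the members.

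**Figure D2:**
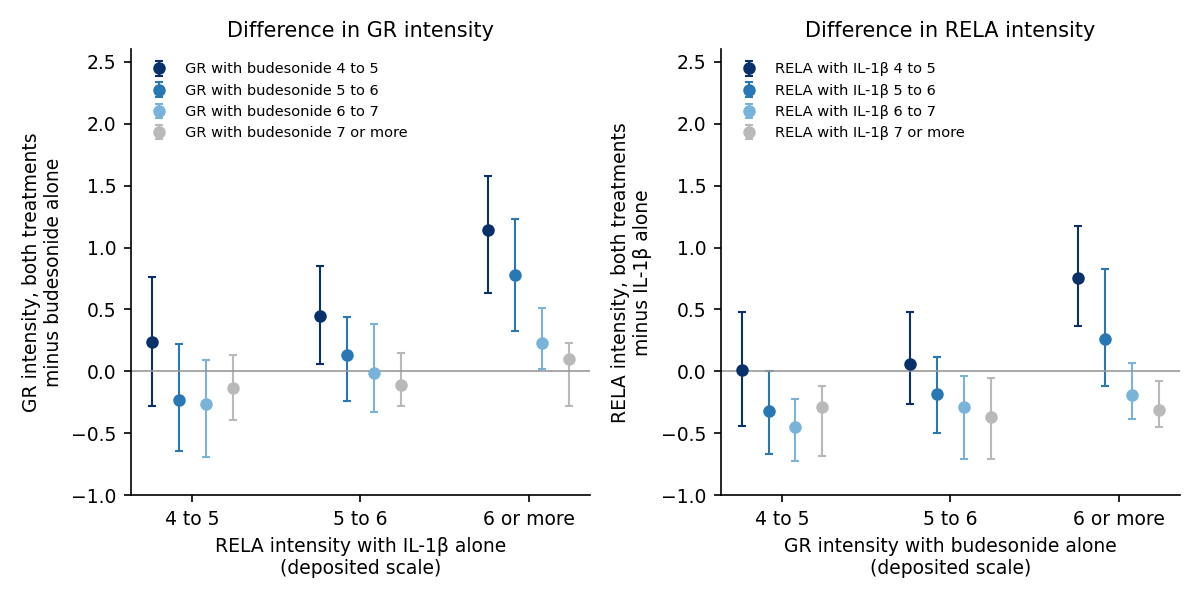
Median difference between both treatments and the single one (y axis, deposited scale; bars span the 25th to 75th percentile of sites) for GR on the left and RELA on the right, against the intensity of the other factor with its own treatment (x axis). Colours give the starting intensity of the factor itself. The median GR difference at a starting intensity of 4 to 5 was 1.14 at the strongest RELA sites and 0.24 at the weakest, and that of RELA was 0.75 at the strongest GR sites and 0.01 at the weakest.

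Most of the sites held neither a GRE nor a κB element. A GRE was found in 107 of the 1771 sites (6.04%, 95% Wilson interval 5.02% to 7.25%), against 24.5% of GR-alone sites, 1.30% of RELA-alone sites and 12.4% of all sites. A κB element was found in 183 (10.3%, interval 9.00% to 11.8%), against 2.68% of GR-alone sites, 42.6% of RELA-alone sites and 18.7% of all sites. In sequence 2000 bp away from the members, the shares were 1.58% for the GRE and 2.2% for the κB element. Both elements were thus more frequent in the members than beside them, and rarer than in the sites of the matching single factor. Intervals cover counting error only. The GREs had a median distance of 17.5 bp from the centre and the κB elements of 31.0 bp, against 13.5 bp for GREs in GR-alone sites and 17.0 bp for κB elements in RELA-alone sites.

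The AP-1 element TGANTCA was the most frequent of the 7 elements at the settings used, in 414 sites (23.4%). It was in 18.1% of GR-alone, 24.3% of RELA-alone and 21.0% of all sites, and in 6.04% of sequence 2000 bp from the members. The settings differ in how much they ask, so the order depends on them. With 1 mismatch the κB element was in 42.9% of the members, and at 9 of 12 positions the GRE was in 23.7%. AP-1 is a family of FOS and JUN dimers that opens chromatin in many epithelial cells. The forkhead letters TGTTTAC, read by FOXA factors, were in 10.2%, against 9.57% of GR-alone, 6.84% of RELA-alone and 8.81% of all sites. The TEAD letters ACATTCC were in 8.41%, against 8.12% of GR-alone, 6.01% of RELA-alone and 7.48% of all sites. The ETS letters CCGGAA were in 3.78%, between the 1.94% of GR-alone and the 6.04% of RELA-alone sites, against 3.83% of all sites. The C/EBP letters TTGCNNCAA were in 1.92%, the same share as in sequence 2000 bp away, and in 1.79% of all sites. All were searched on both strands in the same 200 bp window, and matches of different elements may overlap.

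**Figure D3:**
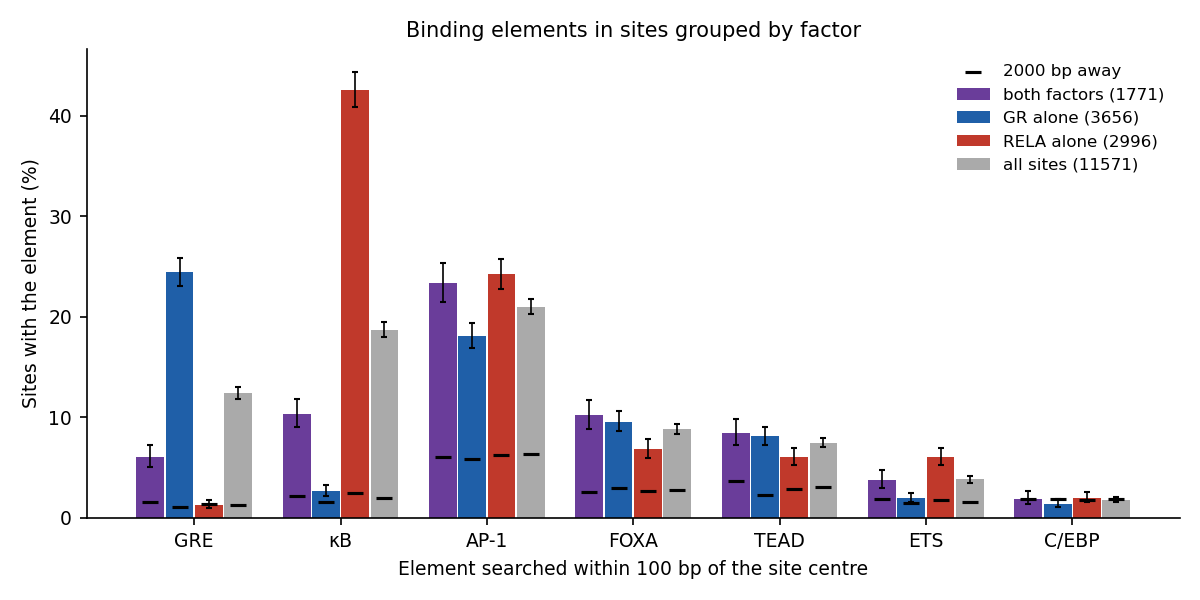
Share of sites (y axis, %) with each element within 100 bp of the centre, for sites of both factors, of GR alone, of RELA alone and all sites; error bars are 95% Wilson intervals for counting error and black dashes the share in sequence 2000 bp away. The sites of both factors held a GRE in 6.04% and a κB element in 10.3%, against 24.5% and 42.6% in the sites of the matching single factor.

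GR was higher with both treatments at most sites with a κB element, and RELA at most sites with a GRE. At the 176 sites with a κB element and no GRE, GR had a median of 5.66 with both treatments, against 4.69 with budesonide alone, a median difference of 0.83, and GR was higher by 0.5 at 115 of them (65.3%) and lower at 3. Of all sites in the table of this class, GR was higher at 72.2%. RELA at these sites had a median difference of 0.02. At the 100 sites with a GRE and no κB element, RELA had a median of 5.15 with both treatments, against 4.44 with IL-1β alone, a median difference of 0.61, and RELA was higher by 0.5 at 59 (59.0%) and lower at 4. The share among all sites of this class was 60.7%, so that neither share of the members stood above that of the table. GR there had a median difference of 0.09. At the 1488 sites (84.0%) with neither element, the median differences were 0.08 for GR and -0.09 for RELA.

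The relation was also present among sites of like starting intensity. Where GR with budesonide was 4 to 5, its median difference was 0.79 at 111 sites with a κB element, against 0.43 at 530 sites without one. Where it was 5 to 6, the values were 0.83 at 56 sites with the element, against -0.05 at 554 without. For RELA between 4 and 5 with IL-1β, the median difference was 0.64 at 80 sites with a GRE, against 0.17 at 755 without, and between 5 and 6 it was 0.56 at 21 sites, against -0.14 at 521. Above 6, only 16 sites had a κB element for GR and 6 a GRE for RELA. At the lowest starting intensity, a factor's own element went with a difference of similar size: RELA between 4 and 5 had a median difference of 0.84 at 45 sites with a κB element, against 0.17 at 790 without, and GR between 4 and 5 had 0.91 at 22 sites with a GRE, against 0.50 at 619 without. Between 5 and 6 this was not seen for GR, with -0.07 at 33 sites with a GRE, against 0.05 at 577 without, and for RELA the median was 0.0 at 58 sites with a κB element, against -0.14 at 484 without. AP-1 showed little of this: over all starting intensities the GR difference was 0.25 with the element, against 0.09 without, and the RELA difference -0.10 with it, against -0.04 without.

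Partial matches were graded in the same sense. The median GR difference was -0.02 at the 837 sites whose best κB sequence matched 7 of 9 positions, 0.31 at the 577 with 8 and 0.81 at the 183 with 9. The median RELA difference was -0.20 at the 575 sites whose best GRE matched 7 of 12 positions, -0.03 at the 706 with 8, 0.26 at the 313 with 9 and 0.61 at the 86 with 10. The GR difference lay between 0.13 and 0.15 over that range of GRE matches, and the RELA difference between -0.06 and 0.05 over the 3 classes of κB matches. At the 20 sites with 11 GRE positions there was no further rise, with a RELA difference of 0.56 and a GR difference of 0.02. At the 166 sites with 6 κB positions, the GR difference was -0.15 and the RELA difference -0.14.

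**Figure D4:**
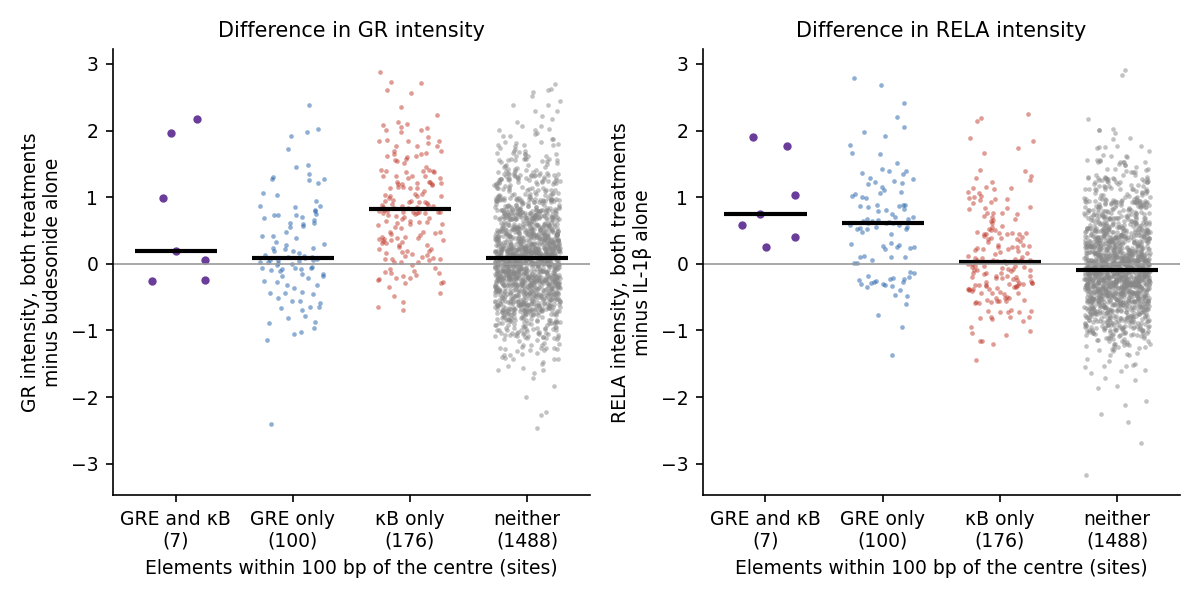
Difference in intensity between both treatments and the single one at each site (y axis, deposited scale) for GR on the left and RELA on the right, by the elements within 100 bp of the centre (x axis, number of sites in brackets); black lines are medians. The GR median was 0.83 at sites with the κB element only and 0.08 at sites with neither, and the RELA median was 0.61 at sites with the GRE only and -0.09 at sites with neither.

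The 7 sites with both elements differed in how the factors moved. KLF4 encodes an epithelial zinc finger factor, and at its site GR measured 7.51 with both treatments, against 5.34 with budesonide, and RELA 8.19 with both treatments, against 6.42 with IL-1β. At the site near EDN1, which encodes the vasoconstrictor endothelin-1, GR measured 6.95 with both treatments, against 5.96 with budesonide, and RELA 6.19 with both treatments, against 4.29 with IL-1β. Near SLC35B4, which encodes a nucleotide sugar transporter, GR measured 6.03 with both treatments, against 4.07 with budesonide, and RELA 6.06 with both treatments, against 5.31 with IL-1β. At all 3 both factors were higher with both treatments by more than 0.5. In JAK1, which encodes a cytokine receptor kinase, the differences were 0.19 for GR and 0.25 for RELA. At the 3 SRGAP2 copies, which share reads, GR differed by -0.26 to 0.06 and RELA by 0.40 to 1.03.

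The largest GR gains lay at sites whose GR with budesonide was below 5, as it was at 641 of the 1771 members. In an exon of KLHL25, which encodes an adaptor of a ubiquitin ligase, GR measured 6.95 with both treatments, against 4.07 with budesonide, a difference of 2.88. RELA at that site measured 6.72 with both treatments, against 4.83 with IL-1β. In an intron of RBFOX3, which encodes a neuronal splicing factor, 112.3 kb from the start, GR measured 6.85 with both treatments, against 4.12 with budesonide, and RELA 6.30 with both treatments, against 4.10 with IL-1β. Near PLLP, a membrane protein gene, GR measured 7.40 with both treatments, against 4.69 with budesonide, and RELA 7.65 with both treatments, against 7.76 with IL-1β. The sites near ITGB8, an integrin subunit gene, and NCCRP1 followed with GR differences of 2.69 and 2.63. The first 3 sites had a full κB match and the other 2 matched 8 of 9 positions, while 42.9% of the members matched 8 or more. RELA moved with GR at KLHL25 and RBFOX3 and not at the other 3, where it was already above 7.5 with IL-1β.

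The largest GR losses were intronic. In MIPEP, which encodes a mitochondrial peptidase, GR measured 2.38 with both treatments, against 4.85 with budesonide. In SPECC1 it measured 3.8 with both treatments, against 6.20 with budesonide, at a site with a GRE of 10 matched positions. RNF43, which encodes a ubiquitin ligase that restrains Wnt signalling, had 5.16 with both treatments, against 7.43 with budesonide. The differences at TTLL6, which encodes a tubulin-modifying enzyme, and KITLG, which encodes stem cell factor, were -2.22 and -2.0. RELA at these 5 sites had been near its limit with IL-1β, between 4.07 and 4.57. At 835 of the 1771 members it was between 4 and 5.

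At the sites of the largest RELA gains, GR with budesonide lay between 5.90 and 8.16. Near PPP1CB, which encodes a catalytic subunit of protein phosphatase 1, RELA measured 7.1 with both treatments, against 4.18 with IL-1β, and GR 8.69 with both treatments, against 7.36 with budesonide. In VMP1, an autophagy gene, 118.3 kb from its start, RELA measured 7.99 with both treatments, against 5.15 with IL-1β, and GR 8.76 with both treatments, against 8.16 with budesonide. Near BAAT, which encodes a bile acid conjugating enzyme, RELA measured 7.39 with both treatments, against 4.70 with IL-1β, and GR 7.82 with both treatments, against 5.90 with budesonide. Sites near GRAPL and in EPN2 had RELA differences of 2.79 and 2.42, and their sequence has copies elsewhere. A GRE was found at BAAT, GRAPL and EPN2 and not at PPP1CB or VMP1.

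Large RELA losses lay near AHR, RFC3, TOMM20 and PDE10A, at -2.69, -2.38, -2.26 and -2.12. Near AHR, which encodes the aryl hydrocarbon receptor, RELA measured 2.49 with both treatments, against 5.18 with IL-1β, while GR was 4.26 with and without IL-1β. Near PDE10A, a phosphodiesterase gene, RELA measured 4.64 with both treatments, against 6.77 with IL-1β, and GR 6.01 with both treatments, against 4.92 with budesonide. No full κB element was found at these 4 sites, and only 10.3% of all members held one.

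Genes of the glucocorticoid response were represented by 50 of the sites, near 18 of 50 listed genes. GR was higher by 0.5 at 18 of them and lower at 10, where 37.4% of all sites were higher and 27.4% lower, and RELA was higher at 17 and lower at 8, where 34.0% and 23.6% of all sites were. The counts of higher sites are near those shares. The median difference was 0.16 for each factor. Of the 8 genes whose strongest site by summed intensity is named here, 7 had GR within 0.5 of the budesonide value and RELA higher by more than 0.5. That pairing was seen at 11.6% of the members and 13.7% of all sites. The sum that picked these sites uses the same single-treatment values as the rule, so the count is a description only. In PER1, a clock gene and classic GR target, GR measured 8.97 with both treatments, against 8.65 with budesonide, and RELA 5.09 with both treatments, against 4.10 with IL-1β. At DUSP1, which encodes a MAP kinase phosphatase, GR measured 8.12 with both treatments, against 8.20 with budesonide, and RELA 7.08 with both treatments, against 5.85 with IL-1β. At KLF9, which encodes a zinc finger factor, GR measured 8.36 with both treatments, against 8.23 with budesonide, and RELA 6.37 with both treatments, against 5.32 with IL-1β. GR stayed above 8 at these 3 sites while RELA was higher by 0.98 to 1.23. RELA was also higher by 1.23 at DDIT4, an inhibitor of mTOR signalling, by 1.28 at SCNN1A, a subunit of the epithelial sodium channel, and by 0.56 at EGFR. These values are of the strongest site only. Over the 3 members near each gene, the median RELA difference was -0.6 at KLF9, -0.15 at DDIT4 and -0.37 at EGFR. At KLF9, RELA was higher by 0.5 at 1 member and lower at 2. Near DUSP1, also with 3 members, the median was 0.57. At CEBPB, which encodes a C/EBP factor, RELA measured 7.92 with and without budesonide, and GR 8.15 with both treatments, against 7.38 with budesonide.

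Genes of the NF-κB response were represented by 40 of the sites, near 21 of 60 listed genes, and there GR was more often higher than lower. GR was higher by 0.5 at 24 and lower at 0 of the 40, where 37.4% and 27.4% of all sites were, with a median difference of 0.68, while RELA was higher at 11 and lower at 12, where 34.0% and 23.6% of all sites were, with a median of -0.04. The 40 sites held 4 κB elements and 3 GREs, near the shares of 10.3% and 6.04% among all members. At CCL2, which encodes a monocyte chemokine, GR measured 6.98 with both treatments, against 5.32 with budesonide, and RELA 7.72 with both treatments, against 7.92 with IL-1β. At TNFAIP3, which encodes the NF-κB inhibitor A20, GR measured 7.79 with both treatments, against 5.77 with budesonide, and RELA 7.66 with both treatments, against 6.79 with IL-1β. At PTGS2, which encodes cyclooxygenase-2, GR measured 7.19 with both treatments, against 6.51 with budesonide, and RELA 7.87 with both treatments, against 8.80 with IL-1β. GR was higher at all 3 sites, and RELA at TNFAIP3 only. At BCL3, which encodes a nuclear IκB protein, GR measured 6.92 with both treatments, against 5.91 with budesonide, and RELA 7.51 with both treatments, against 7.96 with IL-1β. CFLAR, an inhibitor of caspase-8 activation, had GR of 5.67 with both treatments, against 4.62 with budesonide, and RELA of 6.18 with both treatments, against 6.70 with IL-1β. Another CFLAR member had GR of 7.27 with both treatments, against 5.58 with budesonide, and RELA of 5.43, against 4.12 with IL-1β.

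Other sites of that list resembled those of the glucocorticoid genes. At B4GALT1, a galactosyltransferase gene, with a GRE of 10 positions, GR measured 8.74 with both treatments, against 8.50 with budesonide, and RELA 6.26 with both treatments, against 5.26 with IL-1β. At BCL2L1, which encodes the survival protein BCL-XL, GR measured 8.18 with both treatments, against 8.12 with budesonide, and RELA 6.24 with both treatments, against 5.30 with IL-1β. At CCL20, a chemokine gene, GR measured 7.34 with both treatments, against 7.44 with budesonide, and RELA 6.44 with both treatments, against 5.64 with IL-1β. At these 3 sites GR with budesonide was above 7 and RELA with IL-1β below 6. Other members near the same genes differed. At another CCL20 member, GR measured 6.26 with both treatments, against 4.39 with budesonide, and RELA 6.83, against 7.46 with IL-1β. Over the 3 BCL2L1 members, RELA was higher by 0.5 at 1 and lower at 1, with a median difference of -0.46. At NFKBIA, which encodes IκBα, GR measured 7.12 with both treatments, against 6.70 with budesonide, and RELA 7.02 with both treatments, against 6.72 with IL-1β. At CD38, an NAD-hydrolysing surface enzyme gene, GR measured 6.06 with both treatments, against 5.69 with budesonide, and RELA 5.14 with both treatments, against 4.29 with IL-1β.

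**Figure D5:**
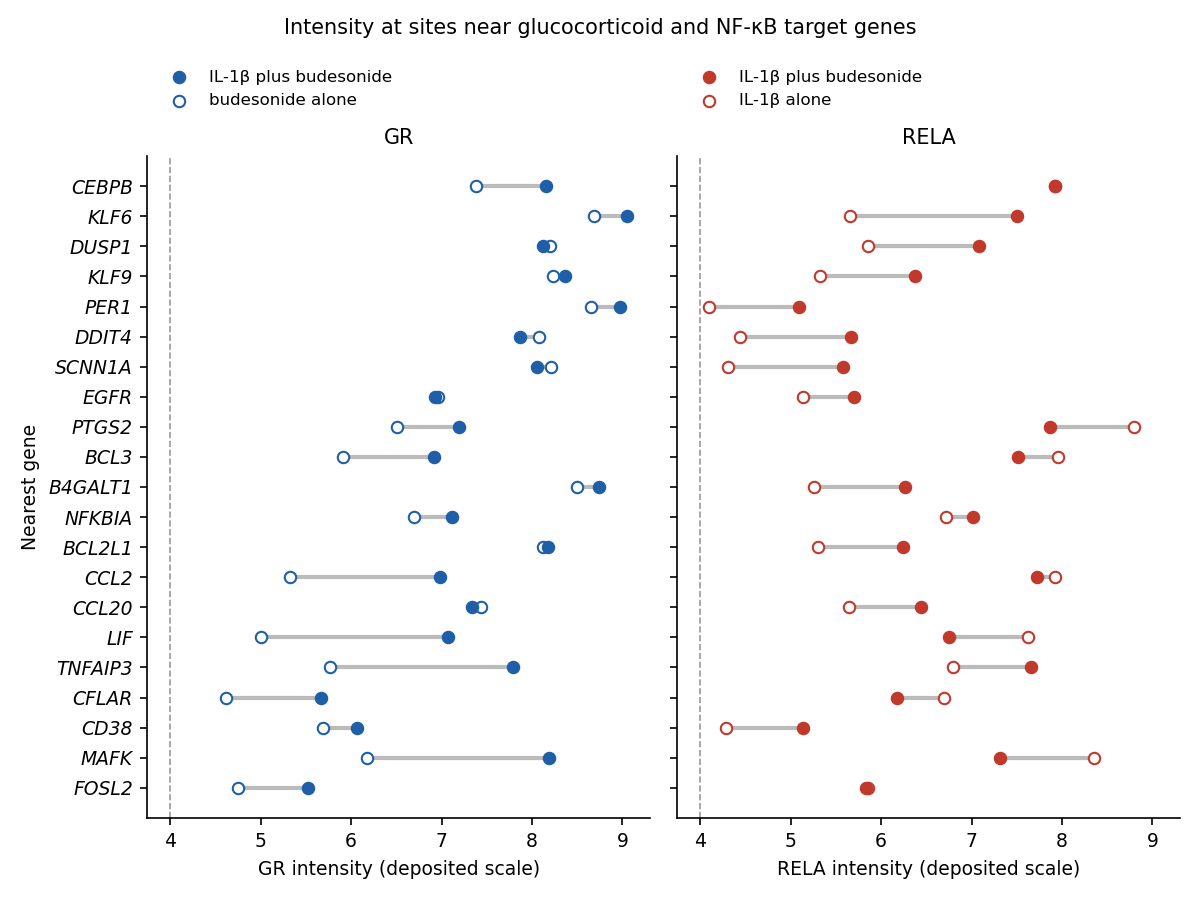
Intensity (x axis, deposited scale) at the listed site of highest summed intensity for each gene (rows), for GR on the left and RELA on the right. Filled circles are IL-1β-plus-budesonide, open circles the single treatment, and the dashed line marks 4. GR was higher by 1.66 at CCL2 and 2.07 at LIF with RELA lower there, and RELA was higher by 1.23 at DUSP1 and 1.28 at SCNN1A with GR nearly in place.

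Genes named by the study for both factors had 17 sites near 7 of 13 genes, 9 with GR higher and 0 lower by 0.5, and 7 with RELA higher and 3 lower. That list was chosen by the study on these samples and does not stand as separate evidence. Genes of AP-1 and C/EBP factors had 7 sites near 3 of 15 genes, 5 with GR higher. The lists share genes, so their counts are not separate. CEBPB, with 4 of these sites and 3 of those with GR higher, is also on the glucocorticoid list. Of the genes named by the study, NFKBIA, TNFAIP3, CFLAR, B4GALT1 and CD38 are on the NF-κB list too, and DDIT4 and EGFR on the glucocorticoid list. The shares of all sites to set beside these small lists are again 37.4% higher and 27.4% lower for GR, and 34.0% and 23.6% for RELA. At MAFK, which encodes a small MAF factor, GR measured 8.19 with both treatments, against 6.18 with budesonide, and RELA 7.31 with both treatments, against 8.35 with IL-1β. At FOSL2, which encodes a FOS family member, GR measured 5.52 with both treatments, against 4.75 with budesonide, and RELA 5.83 with both treatments, against 5.86 with IL-1β. Lung epithelial genes had 17 sites near 10 of 28 genes, with GR higher at 3 and lower at 3 and RELA higher at 3 and lower at 2. The site of highest summed intensity near FOXA2, a forkhead factor of airway epithelium, had RELA of 6.46 with both treatments, against 4.77 with IL-1β. GR there measured 7.83 with both treatments, against 7.88 with budesonide. Over the 3 members near FOXA2, GR was higher by 0.5 at 2 and lower at 0, with a median difference of 1.67. RELA was higher at 2 and lower at 0 of them, with a median of 0.88. Genes of other tissues had 5 sites, all near RBFOX3 among 24 genes.

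Some genes had many such sites, and their counts describe small sets of often neighbouring sites. Among all members, GR was higher by 0.5 at 31.0% and lower at 16.5%, and RELA at 22.3% and 21.2%. Over all sites with both intensities above 0, the shares were 37.4% and 27.4% for GR, and 34.0% and 23.6% for RELA. Several of the counts that follow, such as those of RELA near TOMM20 and NFKBIA, were near these shares. Of 1194 nearest genes, 848 had 1 site and 21 had 5 or more. At all 5 sites near LIF, which encodes a cytokine of the interleukin-6 family, GR was higher with both treatments, and RELA was lower by 0.01 to 0.88. GR there measured 7.07, 7.29, 6.87, 6.08 and 6.41 with both treatments, against 5.00, 4.85, 5.55, 4.97 and 5.27 with budesonide. RELA measured 6.75, 6.73, 6.38, 5.81 and 6.01 with both treatments, against 7.63, 7.36, 6.64, 5.82 and 6.44 with IL-1β. GR was higher by more than 0.5 at each of these neighbouring sites, and none of them held a GRE or a full κB element. Of all members, 84.0% held neither. LIF is tied with other genes at 5 sites and is shown with its values known. GR was higher by 0.5 at 0 and lower at 3 of the 5 sites near PTP4A1, and higher at 3 and lower at 0 near PTPN1.

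SMAD3, which encodes a mediator of TGF-β signalling, had 8 sites with a median GR difference of 1.14. GR ran between 4.30 and 8.13 with both treatments, against 4.01 to 5.57 with budesonide, and was higher by 0.5 at 5 of 8 and lower at 0. RELA was higher by 0.5 at 1 and lower at 3, with a median difference of -0.40. KLF6, a zinc finger factor gene, had 9 sites over 136.4 kb, with GR higher by 0.5 at 4 and lower at 1, RELA higher at 5 and lower at 1, and medians of 0.36 for GR and 0.61 for RELA. The strongest, 102.6 kb upstream, measured 9.05 for GR with both treatments, against 8.69 with budesonide, and 7.50 for RELA with both treatments, against 5.66 with IL-1β. Of the 7 sites near EDN1, GR was higher by 0.5 at 2 and lower at 4, with a median difference of -0.58, and the site with both elements stood out as the one with the highest intensity for each factor with both treatments.

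TOMM20, which encodes a receptor of mitochondrial protein import, had 10 sites, with GR higher by 0.5 at 2 and lower at 0, and RELA higher at 2 and lower at 3. VMP1 had 8 sites, with GR higher by 0.5 at 1 and RELA higher at 2 and lower at 4, the second largest RELA gain of all members among them. MYC, the growth regulator, had 6 of its 40 sites among the members, and the 6 had medians of 0.52 for GR and 0.55 for RELA. NFKBIA had 5, with GR higher by 0.5 at 2 (median 0.42) and RELA higher at 1 and lower at 1 (median 0.23). The 6 sites near SMIM11B had GR lower by 0.5 at 4 and RELA at 1, with medians of -0.67 and -0.36.

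Members lay near one another about as often as sites of GR alone did. Linking sites at most 50 kb apart gave 302 runs that held 815 members (46.0%), of which 195 runs had 2 members and 25 had 5 or more. The same linking held 46.1% of GR-alone, 38.8% of RELA-alone and 66.4% of all sites, a share that also depends on how many sites are linked. Sites lay a median of 42370 bp from the start, against 49238 bp for GR-alone and 44489 bp for RELA-alone sites. They were in introns at 984 sites (55.6%), in exons at 136 (7.68%) and between genes at 651 (36.8%), against 59.0%, 6.96% and 34.0% of all sites, by GENCODE 44. GC content had a median of 46.5%, against 44.2% for GR-alone and 45.0% for RELA-alone sites. Chromosome 17 held 178 of the members (10.1%), against 5.21% of all sites, 28 of them in repeated sequence. A549 cells carry altered numbers of many chromosomes, and copy number was not analysed here.

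The sites highest for both factors were often in repeated sequence, where reads have more than 1 place to align. A site was called repeated when at least 50% of its 32-base stretches occurred again on the reference chromosomes. That held for 112 members (6.32%), against 5.71% of all sites, but for 5 of the 10 members with the highest value of their weaker factor and 27 of the top 50 (54.0%). None of the top 10 held a GRE or a κB element and 1 held AP-1. Of all members, 84.0% held neither a GRE nor a κB element, and 23.4% held AP-1. Others in the top 10 were repeated in part. The centres of 3 of these, with 37.9%, 47.4% and 20.3% of their stretches repeated, are printed from the plus strand of GRCh38 to show sequence that stays below the 50% mark, with nothing in capitals.
ZNF716: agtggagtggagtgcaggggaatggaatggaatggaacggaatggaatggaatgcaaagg
DGCR6: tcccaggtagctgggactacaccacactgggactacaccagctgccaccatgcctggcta
CYP2B7P: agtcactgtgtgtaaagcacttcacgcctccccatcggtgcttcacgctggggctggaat

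They lie at chr7:57489745-57489804, chr22:18892473-18892532 and chr19:40921434-40921493, and the DGCR6 site is in an intron of FAM230F, while the others are between genes. The ZNF716 stretch is largely the 5-base unit of human satellite DNA. At the ZNF716 site GR measured 8.51 with both treatments, against 9.14 with budesonide, and RELA 8.35 with both treatments, against 8.71 with IL-1β. GR and RELA lay within 0.5 of each other at this site, with the combination and with the single treatments. Among the 112 repeated members, r between the single-treatment intensities was 0.60, against 0.01 among the other 1659. All 12 members near TMEM106A were in repeated sequence, with GR between 7.55 and 8.15 with both treatments, against 7.37 to 8.06 with budesonide.

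Leaving out the 112 members moved most values little, but the 50% mark keeps partly repeated sites such as ZNF716 and DGCR6 among the other 1659. Over those, the median difference was 0.15 for GR and -0.03 for RELA, a GRE was in 6.09% and a κB element in 10.4%, and r with both treatments was 0.69. The stricter choice, made after seeing the data, left out every member with any repeated stretch and kept 1302 sites. Over these the median difference was 0.16 for GR and -0.01 for RELA, a GRE was in 6.22% and a κB element in 9.91%, and r between GR and RELA was 0.67 with both treatments and -0.03 with the single ones. The median GR difference at their 126 sites with a κB element and no GRE was 0.91, and the median RELA difference at their 78 sites with a GRE and no κB element was 0.64. One of the highest members without a repeated stretch lay near SERPINA3, which encodes alpha-1-antichymotrypsin, with GR of 9.29 with both treatments, against 8.87 with budesonide, and RELA of 8.52 with both treatments, against 7.62 with IL-1β. It was named after its values were seen.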

How the data were processed

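Per the submitters' processing notes, the authors used bcl2fastq, FastQC 0.10.1, Bowtie2 2.4.4 with GRCh38, SAMtools, MACS2 2.2.7.1 and DiffBind 3.2. The deposited table has 46284 lines, 4 for each site of 400 bp. Its binding intensity is a score per site, factor and treatment over both libraries, scaled by the authors in a way not given in the sources used here. Its folds over untreated cells, false discovery rates and labels of behaviour and trend are the authors' own comparisons and were not used. Positions, counted from 0 in the table, are given from 1.

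Sites were joined by name. Elements were searched in GRCh38 within 100 bp of the centre, on both strands, with the sequence 2000 bp away as control. The search was tested on simulated data. Copies of 32-base stretches were counted on chromosomes without alternate sequences. Genes are the nearest ones named in the table, and places come from GENCODE 44.

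The members and gene lists were chosen with earlier results of these data known. Sites named are the 10 of highest weaker intensity, the 5 largest differences each way, the site of highest summed intensity for up to 8 genes per list, sites of the 10 genes with most members, 2 sites on each side of each limit, and those with both elements. Some sites chosen by this rule are not reported here. Others are said to be chosen later, and the ranges of starting intensity were chosen after seeing the data. Tests over libraries could not be run. The work was done in Python 3.11.15 with Matplotlib 3.10.9, NumPy 2.4.6, SciPy 1.17.1 and pandas 2.3.3.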

Additional observations from a re-analysis of the deposited data

How the results depend on the processing

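Lowering the intensity limit to 3.5 gave 2849 sites, with a median GR difference of 0.092 and a RELA difference of 0.019, so that the sign of the small RELA median changed. A limit of 4.5 gave 1032 sites, and a limit of 5 gave 571, with a RELA difference of -0.14. Leaving out every member with a repeated stretch, which like the 50% mark was chosen after seeing the data, gave a RELA difference of -0.011. Subtracting the median of all sites left 0.033 for GR and -0.11 for RELA. Counting only differences of 1 or more left 245 sites with GR higher, 71 with GR lower, 151 with RELA higher and 85 with RELA lower. The GRE was found in 420 sites at 9 of 12 positions and in 21 at 11 of 12, and the κB element in 760 with 1 mismatch. The cause was not tested. The other 37 values stayed within 1.5 times the reported count, or within the 95% binomial interval of the reported median. They come from the 2000 bp and 100000 bp distances, the limit of 5 for GR, the median-subtracted counts, the whole site as search window, runs of 20 kb and 100 kb, and leaving out repeated sequence by either mark. No paired analysis was possible because the table holds no values per library, and leaving out a library was not possible for the same reason. Depth and replicate spread are unknown, so no difference at a single site can be set against its error.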
